A study of Mus musculus with 22 samples.

Results

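The 10 genes described here were chosen by their values: they were picked from these arrays for a large difference, between young and aged mice, in how long-term hematopoietic stem cells (LT-HSCs) without the aryl hydrocarbon receptor (AHR) compared with controls. They are Rassf5, Ppm1h, Paqr5, Tiprl, Fam3a, Prrc2b and Dpysl2, which had higher signals in AHR-deficient LT-HSCs at 2 months (Prrc2b in 1 of its 2 probe sets), and Rnf114, Zfp770 and Marf1, which had lower ones. At 18 months the genotypes overlapped for each of them. The 10 genes were read by 11 of the 26688 probe sets of the array, Prrc2b by 2 and the others by 1 each. 1 further probe set carried the symbols of Rnf114 and Spata2 together and was not used.

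LT-HSCs came from the bone marrow of female C57BL/6J mice. They were sorted from lineage-depleted cells as LSK cells (lineage-negative, Sca-1+ and cKit+) that were CD150+, CD48- and CD34-. AHRVav1 mice were Vav1-cre+/- Ahr fx/fx, so that Cre recombinase, made from the Vav1 promoter in hematopoietic cells from fetal life on, removes the floxed part of Ahr. AHRFX mice were Ahr fx/fx, carrying the same floxed alleles without Cre. The 22 arrays came from 22 mice, 1 animal each. Young mice, killed at 2 months, numbered 5 per genotype, and aged mice, killed at 18 months, numbered 6 per genotype. No group carried Cre without floxed Ahr.

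AHR is a transcription factor that is activated by small molecules such as dioxins and tryptophan metabolites. It then enters the nucleus, pairs with ARNT and binds DNA elements with the core GCGTG. LT-HSCs are rare, mostly quiescent cells that maintain all blood lineages, and with age they expand in number and lose regenerative output. The 10 genes belong to no shared pathway. Rassf5 is an effector of Rap1 in integrin adhesion, Ppm1h and Tiprl act in protein dephosphorylation, Paqr5 is a membrane progestin receptor, Fam3a belongs to a family of secreted cytokine-like proteins, and Dpysl2 binds tubulin. Prrc2b and Marf1 act on RNA, Rnf114 is a ubiquitin ligase and Zfp770 is a zinc finger protein.

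Signals are linear intensities of probe sets, and differences between groups were taken on log2(signal + 16). A signal was called above background when it exceeded the 95th percentile of the 1397 olfactory and vomeronasal receptor probe sets of the same array, genes that blood cells are not known to use. The ages differed in this background. Its limit lay at 68.8 to 95.7 on AHRVav1 and 58.5 to 81.9 on AHRFX arrays at 2 months. The 18-month arrays had lower limits, 26.7 to 30.6 for AHRVav1 and 25.3 to 31.3 for AHRFX. Of all probe sets, 28.0% ± 2.39 in AHRVav1 and 31.5% ± 2.83 in AHRFX mice were above it at 2 months (SD, n = 5 each). The shares were 55.1% ± 1.63 in AHRVav1 and 55.7% ± 2.15 in AHRFX mice at 18 months (SD, n = 6 each). Arrays of a group also resembled each other less at 2 months, with a median SD per probe set of 0.48 (log2) in both genotypes, than at 18 months, with 0.21 in AHRVav1 and 0.24 in AHRFX mice. The sources do not give whether the ages were hybridized together, so age and array run cannot be told apart. In bulk samples fewer cells of a type and less RNA per cell cannot be told apart either.

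Ahr itself was at background at 2 months in both genotypes. Its signals were 5.8, 10.1, 2.6, 6.0 and 4.1 in AHRVav1 mice and 5.3, 5.3, 7.7, 7.0 and 2.0 in AHRFX mice, none above background, so at 2 months Ahr does not check the labels. At 18 months the signals were 18.1, 22.9, 26.2, 26.8, 38.1 and 35.7 in AHRVav1 mice and 97.2, 39.6, 23.6, 45.4, 48.0 and 58.2 in AHRFX mice, above background in 2 AHRVav1 and 5 AHRFX mice. The position of the Ahr probes against the deleted part was not known. Of 10 LT-HSC markers measured, 5 were above background on every AHRVav1 array and 6 on every AHRFX array at 2 months, against 9 in each genotype at 18 months. Fgd5 and Tek were above background on no 2-month array, and Cd34, whose protein the sort left out, was above background on every array. Cd48, whose protein the sort excluded, was above background in 3 AHRVav1 and 1 AHRFX mice at 2 months and in all mice at 18 months, with means of 330.2 ± 190.4 in AHRVav1 and 377.9 ± 150.9 in AHRFX mice (SD, n = 6 each). Flt3, a marker of later progenitors, was above background in 0 AHRVav1 and 1 AHRFX mice at 2 months and in all mice at 18 months.

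**Figure D1:**
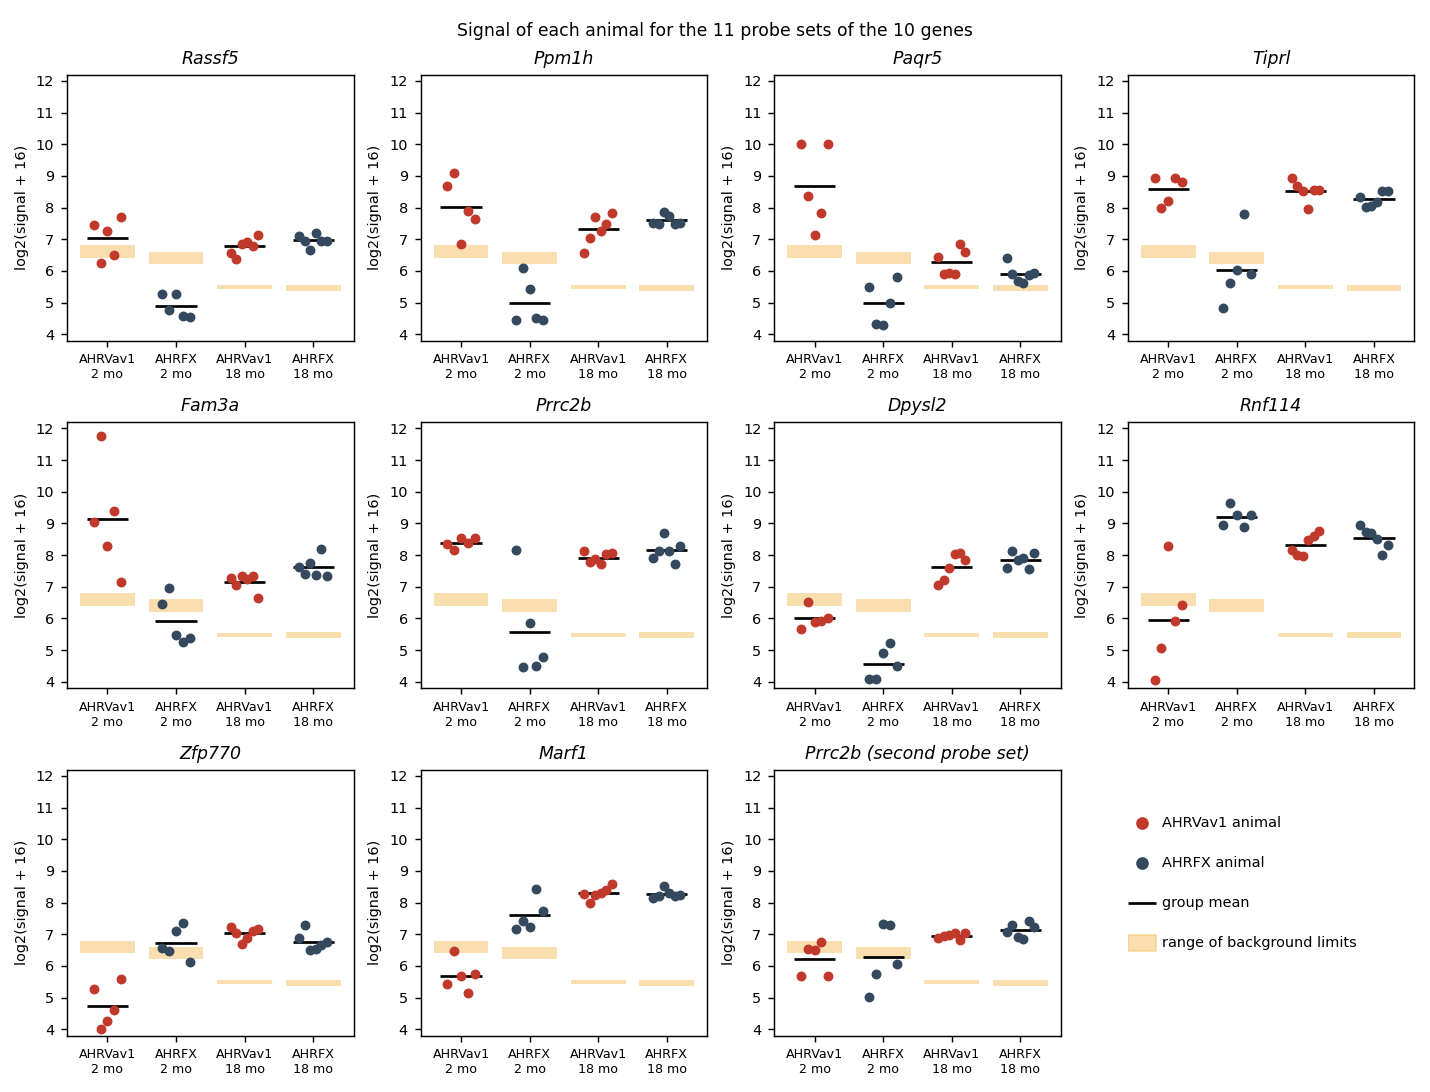
Signal of each animal, as log2(signal + 16), for the 11 probe sets of the 10 genes; points are animals, black lines are group means, and shaded bands span the background limits of the arrays in each group (5 mice per genotype at 2 months, 6 at 18 months). The genotypes overlapped in all 11 panels at 18 months, when every point lies above background.

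Rassf5, an effector that links Rap1 to integrins and to the Mst1 kinase in lymphocyte adhesion, had signals of 160.2, 59.3, 136.2, 75.4 and 193.9 in 2-month AHRVav1 mice, against 22.6, 11.0, 22.8, 7.9 and 7.3 in AHRFX mice. The groups did not overlap, and Rassf5 was above background in 4 AHRVav1 and in 0 AHRFX mice. The fitted difference was 2.15 ± 0.35 (SE, log2). With no AHRFX array above background, the bound was smaller, at least 1.72-fold higher in AHRVav1. The 18-month signals were 67.6 to 125.7 (median 98.1) in AHRVav1 and 86.0 to 129.8 (median 107.8) in AHRFX mice, which overlapped, with a difference of -0.19 ± 0.14. The 2-month AHRFX mice were thus the low group, below all 17 other arrays.

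Ppm1h, a metal-dependent serine/threonine phosphatase that removes phosphate from Rab GTPases, had signals of 392.9, 527.0, 98.2, 223.3 and 181.7 in 2-month AHRVav1 mice, against 5.8, 52.3, 27.2, 7.0 and 6.1 in AHRFX mice. It was above background in 5 AHRVav1 and 0 AHRFX mice, at least 3.65-fold higher in AHRVav1, with a fitted difference of 3.03 ± 0.50. At 18 months the signals of AHRVav1 mice, 79.1 to 211.2 (median 150.8), spanned those of AHRFX mice, 162.0 to 216.7 (median 165.6), except for the highest, and the difference was -0.28 ± 0.19.

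Tiprl binds the catalytic subunits of PP2A-type phosphatases. Its signals at 2 months were 467.9, 236.0, 280.1, 472.2 and 434.8 in AHRVav1 mice, against 12.4, 33.1, 48.7, 207.7 and 44.3 in AHRFX mice. 1 AHRFX mouse, replicate 4, came close to the AHRVav1 range and was the only AHRFX mouse above background. The difference was 2.54 ± 0.52 at 2 months and 0.27 ± 0.16 at 18 months, when the signals were 233.0 to 468.3 (median 361.2) in AHRVav1 and 245.0 to 351.1 (median 289.1) in AHRFX mice. The 2-month AHRVav1 mice lay at the level of both 18-month groups.

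Paqr5, membrane progestin receptor gamma, had the largest fitted difference of all 26688 probe sets at 2 months. Its signals were 1016.0, 310.8, 125.1, 212.7 and 1013.8 in AHRVav1 mice, against 29.2, 3.9, 3.6, 15.8 and 40.6 in AHRFX mice. All 5 AHRVav1 mice and 0 AHRFX mice were above background, which gives at least 5.83-fold, and the fitted difference was 3.69 ± 0.61. Within AHRVav1 replicates 1 and 5 stood well above the other 3 mice. In aged mice the signals were 43.4 to 99.5 (median 57.4) in AHRVav1 and 33.2 to 68.0 (median 43.3) in AHRFX mice, with a difference of 0.37 ± 0.19. Paqr5 was the member whose 2-month AHRVav1 mice all lay above every 18-month array.

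Fam3a, of the FAM3 family of cytokine-like proteins, had the widest spread within a group. The 2-month signals were 508.2, 3447.1, 295.6, 653.1 and 127.6 in AHRVav1 mice, against 71.3, 107.4, 28.9, 22.5 and 25.9 in AHRFX mice. The groups did not overlap, but the mean of 1006 ± 1379 (SD, n = 5) in AHRVav1 rested on replicate 2. The difference was 3.22 ± 0.75 with that mouse and 2.56 without it. At 18 months it was -0.47 ± 0.17, the largest of the 11 probe sets in size at that age, with signals of 83.8 to 146.4 (median 136.2) in AHRVav1 and 145.8 to 273.9 (median 166.3) in AHRFX mice. These overlapped only at the edge, since the lowest AHRFX mouse lay just under the highest AHRVav1 mouse.

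Prrc2b, a proline-rich RNA-binding protein that acts in translation, was read by a pair of probe sets that did not show the same pattern. The first gave signals of 307.0, 271.1, 356.0, 315.6 and 354.8 in 2-month AHRVav1 mice, against 273.3, 6.2, 42.3, 6.7 and 11.5 in AHRFX mice. 4 AHRFX mice were thus at background and replicate 1 was within the AHRVav1 range, and the difference was 2.83 ± 0.65. The second gave 35.2, 76.0, 75.3, 91.2 and 35.1 in AHRVav1 mice, against 16.5, 37.4, 145.9, 140.1 and 50.3 in AHRFX mice, with a difference of -0.06 ± 0.49. Which of these stands for the gene was not tested. At 18 months the first gave 192.7 to 261.3 (median 230.9) in AHRVav1 and 196.6 to 399.4 (median 264.4) in AHRFX mice, a difference of -0.23 ± 0.15. The second gave 97.8 to 116.7 (median 109.9) in AHRVav1 and 99.1 to 156.3 (median 126.2) in AHRFX mice, a difference of -0.17 ± 0.13.

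Dpysl2 (CRMP2), a tubulin-binding protein known from growing axons, had 2-month signals of 34.5, 75.5, 43.4, 44.5 and 48.6 in AHRVav1 mice, against 1.2, 0.9, 14.2, 21.8 and 6.8 in AHRFX mice. These groups did not overlap, with a fitted difference of 1.43 ± 0.28, but only 1 AHRVav1 mouse and 0 AHRFX mice were above background, so no fold is given. At 18 months all 12 mice were above background, at 117.9 to 251.4 (median 197.0) in AHRVav1 and 171.3 to 263.7 (median 218.0) in AHRFX mice, with a difference of -0.21 ± 0.18. Dpysl2 was the member whose 2-month mice of both genotypes lay below every 18-month array.

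Rnf114, a RING-type ubiquitin ligase, was the member with the largest difference in the other direction. Its 2-month signals were 0.5, 17.2, 298.9, 43.9 and 69.0 in AHRVav1 mice, against 481.7, 790.3, 606.0, 455.9 and 593.2 in AHRFX mice. AHRVav1 replicate 3 was the only AHRVav1 mouse above background, where it stood at the level of the aged mice. The difference was -3.26 ± 0.67 at 2 months and -0.21 ± 0.18 at 18 months, when the signals were 234.7 to 417.2 (median 304.7) in AHRVav1 and 238.3 to 477.2 (median 371.8) in AHRFX mice.

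Zfp770, a zinc finger protein, had 2-month signals of 23.0, 0.0, 3.3, 8.2 and 32.5 in AHRVav1 mice, against 78.8, 72.5, 120.5, 146.4 and 53.5 in AHRFX mice. It was above background in 0 AHRVav1 and 3 AHRFX mice, so that the fitted difference of -1.97 ± 0.37 came with a bound of only at least 1.13-fold higher in AHRFX. The 18-month signals were 88.3 to 135.1 (median 119.2) in AHRVav1 and 74.5 to 140.4 (median 89.3) in AHRFX mice, with a difference of 0.26 ± 0.15.

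Marf1, an RNA-binding ribonuclease that limits transcripts in mouse oocytes, had 2-month signals of 27.1, 72.1, 35.1, 19.7 and 37.4 in AHRVav1 mice, against 128.1, 156.8, 134.1, 328.3 and 198.0 in AHRFX mice. 1 AHRVav1 mouse and all 5 AHRFX mice were above background, and the difference was -1.91 ± 0.36. In aged mice the genotypes were closest of all 11 probe sets, at 238.5 to 373.0 (median 298.9) in AHRVav1 and 268.3 to 353.2 (median 282.6) in AHRFX mice, a difference of 0.04 ± 0.12.

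**Figure D2:**
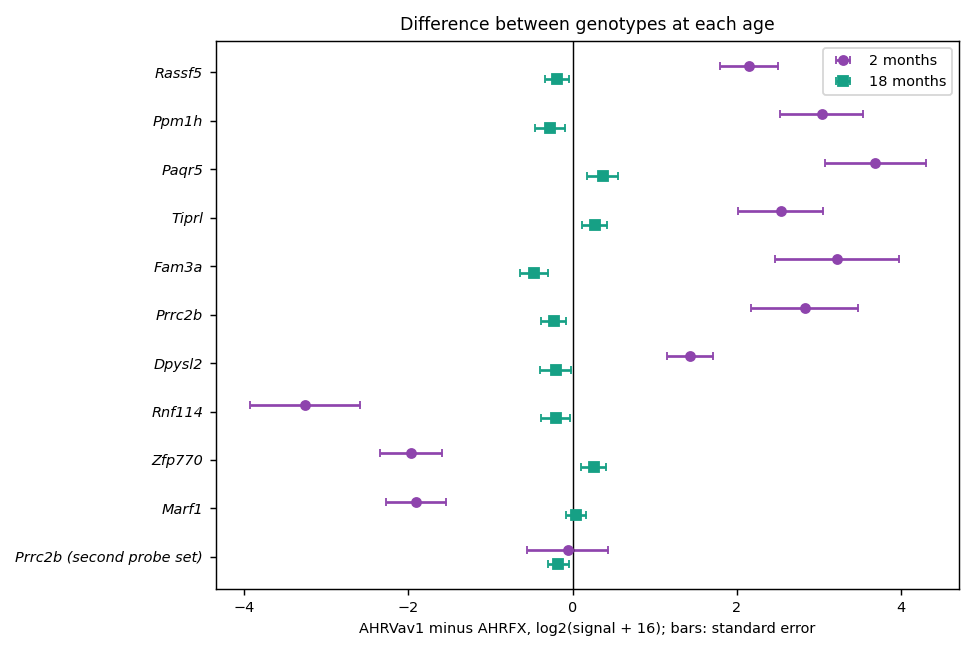
Difference between genotypes, AHRVav1 minus AHRFX on log2(signal + 16), at 2 months (circles) and 18 months (squares) for each probe set, with bars of 1 standard error. The 2-month differences run from -3.26 for Rnf114 to 3.69 for Paqr5 and the 18-month ones from -0.47 for Fam3a to 0.37 for Paqr5.

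These differences describe how the genes were chosen and are no test of them. Among the 18-month arrays, replicates 1 and 2 of both genotypes stood apart from most of the others. Without these 4 arrays the 18-month differences of the 11 probe sets ran from -0.53 for Fam3a to 0.54 for Paqr5. Dpysl2 and Rnf114 turned to 0.05 and 0.07. Across all probe sets, limma with Benjamini-Hochberg adjustment called 0 of 26688 between AHRVav1 and AHRFX at 2 months (0.0%) and 0 at 18 months (0.0%), no member among them. At an unadjusted p under 0.05 there were 1237 probe sets at 2 months (4.6% of all) and 1648 at 18 months (6.2%). These shares lie near the 0.05 that such a threshold passes without any effect. The unmoderated test on single probe sets gave 1295 and 1662, with 0 after adjustment at either age. A fit of all 4 groups together called 113 probe sets at 2 months (42 higher and 71 lower in AHRVav1) and 0 at 18 months. The genes are called here by their values, since the members were chosen on them. The genotype-by-age difference, the genotype effect at 18 months minus that at 2 months, was called for 3 probe sets (0.0112%): Rassf5, Ppm1h and a probe set without a gene name. The difference was -2.34 ± 0.37 for Rassf5 and -3.31 ± 0.53 for Ppm1h. These calls were not stable: 0 probe sets passed without the 18-month replicates 1 and 2, with array weights or with an offset of 64, and with a replicate block the 1 that passed was Paqr5, not Rassf5 or Ppm1h. Ordered by this test the 10 lead probe sets (one per gene, the first for Prrc2b) stood at ranks 2 to 23, while the second Prrc2b probe set stood at rank 22612. The lowest in this order among the lead probe sets was Tiprl, at -2.27. Named genes that were not chosen stood between the members. Among them were Fanci at rank 8 (2.01), Fance at rank 11 (1.82), Rab27b at rank 19 (1.78) and Wdr18 at rank 22 (2.65).

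The count of groups without overlap was likewise fixed by the choice. At 2 months 6 of the 11 probe sets (Rassf5, Tiprl, Ppm1h, Dpysl2, Paqr5 and Fam3a) had every AHRVav1 mouse above every AHRFX mouse, which held for 0.363% of all probe sets, and 3 (Marf1, Rnf114 and Zfp770) had every AHRVav1 mouse below, which held for 0.495%. At 18 months 0 of the 11 were without overlap in either direction, against 0.378% of all probe sets. Ppm1h and Paqr5 were the 2 probe sets of the whole array (0.00749%) that were above background in every AHRVav1 and no AHRFX mouse at 2 months. The reverse, above background in every AHRFX and no AHRVav1 mouse, held for 13 probe sets (0.0487%) and no member.

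**Figure D3:**
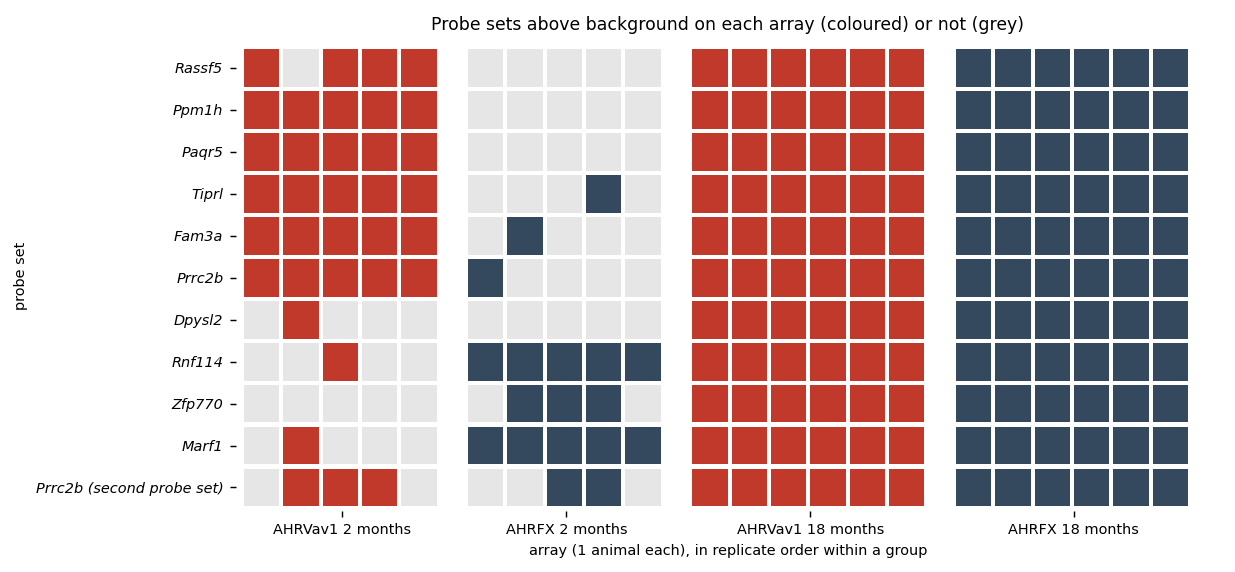
Calls above background on each of the 22 arrays (columns, 1 animal each, by group and replicate) for the 11 probe sets (rows); coloured cells are above background and grey cells are not. All 11 rows are filled on the 12 arrays at 18 months, while the 2-month arrays hold between 2 and 8 filled cells each.

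All 11 probe sets were above background on all 12 arrays at 18 months, as were 42.0% of the array. At 2 months the number above background was 6, 8, 8, 7 and 6 in AHRVav1 mice and 3, 4, 4, 5 and 2 in AHRFX mice. In 6 of the 10 lead probe sets (Rassf5, Ppm1h, Tiprl, Dpysl2, Zfp770 and Marf1) each mouse of the low 2-month group lay below all 17 other arrays. The other 2-month genotype overlapped the 18-month range in 8 of the 10, the exceptions being Paqr5, above it, and Dpysl2, below it. For Rnf114, Fam3a and Marf1 this overlap rested on 1 mouse: AHRFX replicate 4 (455.9), AHRVav1 replicate 5 (127.6) and AHRFX replicate 4 (328.3). The other mice of these groups lay above the 18-month range for Rnf114 and Fam3a and below it for Marf1. Single mice went with the other genotype or close to it for Prrc2b and Tiprl (AHRFX replicates 1 and 4) and for Rnf114 (AHRVav1 replicate 3), so no 1 mouse was the exception each time.

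Markers of other cells at 2 months are given beside these values, and their part in them was not tested. Of 9 granulocyte markers 8 had a higher mean log2 signal in AHRVav1 mice (median difference 0.59), with sums of 3763 to 12490 in AHRVav1 and 920.9 to 15400 in AHRFX mice. Of 7 megakaryocyte markers 1 was higher (median -0.44), with sums of 631.1 to 1200 in AHRVav1 and 576.3 to 1810 in AHRFX mice. Of the 10 LT-HSC markers 2 were higher (median -0.42), with sums of 4342 to 6705 in AHRVav1 and 3873 to 8700 in AHRFX mice. Of the erythroid, B cell, T and NK cell and macrophage markers, 0 were above background on every array of a 2-month group. Of 8 endothelial and stromal markers 5 were higher in AHRVav1 mice (median 0.27), with sums of 328.7 to 896.7 in AHRVav1 and 463.2 to 1660 in AHRFX mice. The collagen gene Col1a2 went the other way. The brighter of its 2 probe sets was above background in all 5 AHRFX mice and in 1 AHRVav1 mouse at 2 months. Its means were 57.5 ± 95.5 in AHRVav1 and 240.3 ± 143.3 in AHRFX mice (SD, n = 5 each), a difference of -2.35 ± 0.68. No marker was called between the genotypes.

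The difference between the ages was also tied to the choice of genes, because it uses the same 2-month values: a gene picked for 1 low genotype at 2 months has a low 2-month mean, and signals near background are compressed. The members' age differences are therefore given as descriptions, with no p and no call. Of all probe sets limma called 29.1% higher and 37.3% lower at 18 months, over both genotypes (mean age effect, adjusted p under 0.05), with a median of -0.11. Of the 11196 that were above background on every 18-month array, as all 11 were, 53.1% were called higher and 14.3% lower, with a median of 0.79, but that filter favours probe sets with high 18-month signals. The background limit and the spread differed between the ages too.

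Dpysl2 had the largest mean age difference of the 11, 2.46 ± 0.19 (SE, log2), with both genotypes lower at 2 months. Its mean signals were 190.0 ± 56.5 in AHRVav1 and 216.4 ± 38.1 in AHRFX mice at 18 months (SD, n = 6 each), against 49.3 ± 15.5 in AHRVav1 and 8.98 ± 8.98 in AHRFX mice at 2 months (SD, n = 5 each). Within AHRFX mice Dpysl2 was at least 3.23-fold higher at 18 months with the main background limit. This bound depends on that limit and would be smaller with the stricter one tried as an alternative. The stricter limit lay at 145.9 to 299.7 on 2-month AHRFX arrays, a range that holds all 18-month AHRFX signals of Dpysl2, 171.3 to 263.7. Marf1 had 1.64 ± 0.19. Of its AHRFX mice at 2 months, 128.1 to 328.3, replicate 4 alone lay in the 18-month range, and no AHRVav1 mouse did.

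The other mean age differences were 1.17 ± 0.20 for Zfp770, 1.10 ± 0.26 for Tiprl, 0.95 ± 0.26 for Ppm1h, 0.92 ± 0.18 for Rassf5 and 0.85 ± 0.33 for Rnf114. In each of these the mice of the low 2-month genotype lay below the aged mice, apart from AHRVav1 replicate 3 for Rnf114. Some mice of the other 2-month genotype lay below them too. These were AHRVav1 replicate 2 for Rassf5 (59.3) and AHRFX replicates 2 and 5 for Zfp770 (72.5 and 53.5). Paqr5 had -0.74 ± 0.30 and Fam3a -0.14 ± 0.37, or 0.19 without AHRVav1 2-month replicate 2. The Prrc2b probe sets had 1.06 ± 0.32 (first) and 0.79 ± 0.24 (second), but these means joined different values: the first had -0.47 in AHRVav1 and 2.59 in AHRFX mice, and the second 0.73 in AHRVav1 and 0.84 in AHRFX mice.

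**Figure D4:**
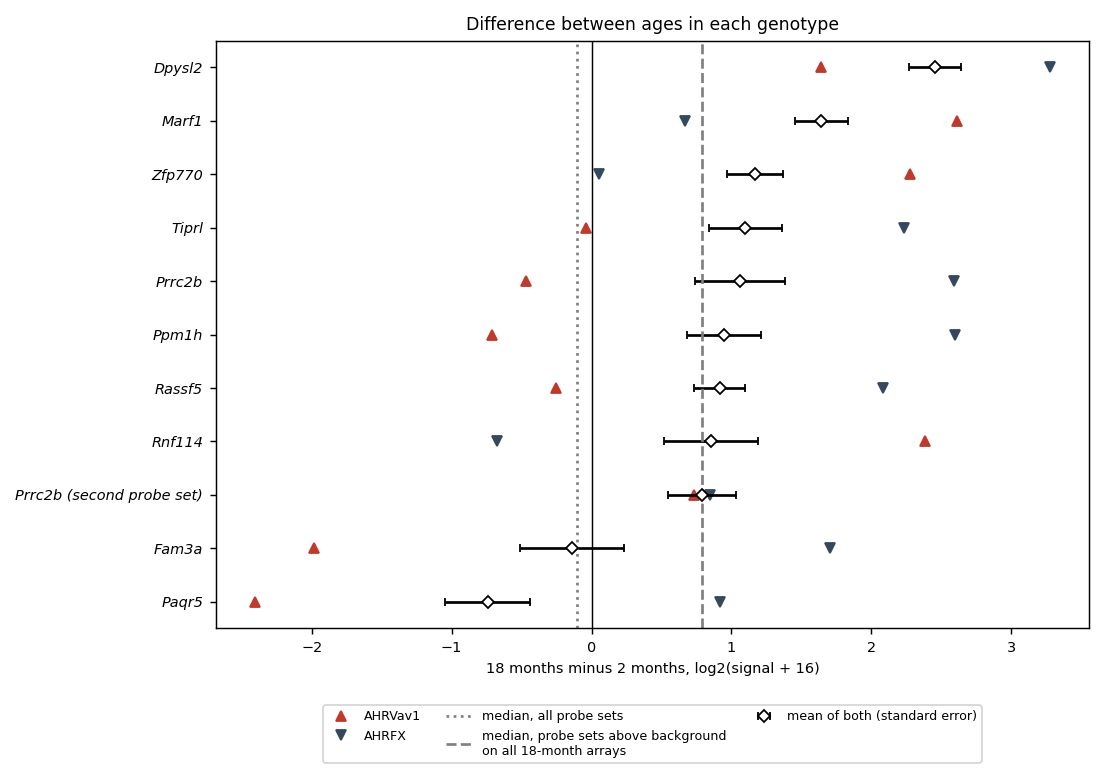
Difference between ages, 18 months minus 2 months on log2(signal + 16), for each probe set in AHRVav1 mice (upward triangles), AHRFX mice (downward triangles) and as the mean of both (diamonds, with 1 standard error); vertical lines give the median of the mean effect over all probe sets (-0.11) and over those above background on all 18-month arrays (0.79). 9 diamonds lie above 0, with Fam3a at -0.14 and Paqr5 at -0.74 below it, and all of them use the 2-month values by which the genes were chosen.

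By genotype the age differences ran apart, as the choice of genes fixed. In AHRVav1 mice 18 minus 2 months gave -0.25 for Rassf5, -0.71 for Ppm1h and -0.04 for Tiprl, where AHRFX mice had 2.09, 2.60 and 2.23 for the same genes. For Rnf114, Zfp770 and Marf1 the AHRVav1 mice had the larger values, 2.38, 2.28 and 2.61, against -0.67, 0.05 and 0.67 in AHRFX mice. Paqr5 and Fam3a ran in opposite directions, with -2.40 and -1.98 in AHRVav1 mice and 0.92 and 1.70 in AHRFX mice. Dpysl2 was higher at 18 months in both genotypes, by 1.64 in AHRVav1 and 3.27 in AHRFX mice.

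Relatives and partners of the 10 genes were measured for 68 genes in 9 lists, and were not compared with the members by a test. Their genotype effects at 2 months ran from -1.58 (Apbb1ip, a Rap1 effector) to 1.91 (Rnf166), named for being the extremes, with a median of -0.01 and 34 of 68 above 0, and none was called in a comparison between genotypes. With age 39 were higher, 10 were lower and 19 did not pass, with a median of 0.87. These counts stand beside 29.1% higher and 37.3% lower over all probe sets and 53.1% and 14.3% over those above background on every 18-month array, and nothing particular to the lists is read from them.

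Among the RASSF proteins and the genes of Rap1-driven integrin adhesion 10 of 14 were higher at 18 months and 2 lower. Rassf4 rose by 2.45 ± 0.40 and Itgal, the alpha chain of LFA-1, the integrin that Rassf5 acts on in lymphocytes, rose by 2.37 ± 0.27, while the 2-month genotype effects were 0.52 for Rassf4 and -0.35 for Itgal. Of 14 other PPM phosphatases 9 were higher and 2 lower, led by Ppm1b at 2.35 ± 0.42 and by Pdp2, which activates pyruvate dehydrogenase, at 2.24 ± 0.22. Of 10 PP2A-type phosphatase genes 7 were higher and 0 lower, among them the scaffold subunit Ppp2r1b at 2.58 ± 0.20 and the methylesterase Ppme1 at 1.62 ± 0.29. Itgal and Ppp2r1b were above background on no 2-month array. Rassf4, Ppm1b, Pdp2 and Ppme1 were above it in 0 to 2 mice of each 2-month group.

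The PAQR family had 4 of 9 higher and 1 lower, with Paqr9 at 1.99 ± 0.37 and the adiponectin receptor Adipor2 at 1.94 ± 0.34, and the 1 lower, Mmd2, had -0.31 with no array above background in any group. Of the FAM3 genes Fam3c had 1.46 ± 0.50 and Fam3b, at background at 18 months, had -0.03. The 2 other PRRC2 genes did not pass, with 0.18 ± 0.21 for Prrc2a and 0.11 ± 0.17 for Prrc2c, and both were above background on every array. Of 3 ligases related to Rnf114, Rnf138 rose by 1.36 ± 0.27 and the others did not pass. Of 9 genes of mRNA decapping or with LOTUS domains, which Marf1 also has, 7 were higher and 1 lower, with the decapping enzyme Dcp2 at 1.64 ± 0.36 and its scaffold Edc4 at 1.63 ± 0.12. Paqr9 and Edc4 were above background on no 2-month array. The 18-month means of Edc4, 52.3 in AHRVav1 and 52.0 in AHRFX mice, lay below the 2-month background limits. Paqr9 had 18-month means of 138.1 ± 173.3 in AHRVav1 and 58.3 ± 28.6 in AHRFX mice (SD, n = 6 each). Only 4 of the AHRVav1 mice were above background for Paqr9. Its AHRFX mean lay just below the 2-month limits too, the lowest of which was 58.5. Adipor2, Fam3c, Rnf138 and Dcp2 were above background in 0 to 3 mice of each 2-month group.

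In the CRMP family, that of Dpysl2, 0 of 5 measured relatives were higher and 4 were lower at 18 months, where 37.3% of all probe sets were lower, with Dpysl3 at -1.15 ± 0.16 (another Dpysl3 probe set gave -0.85) and Dpysl5 at -1.04 ± 0.21, and Crmp1 did not pass. The others that were lower lay near background: Dpys was above it on no array of any group, and Dpysl4 in 0 AHRVav1 and 2 AHRFX mice at 2 months. Dpysl5 was above background on every array, with mean signals of 282.7 ± 24.1 in AHRVav1 and 296.4 ± 61.8 in AHRFX mice at 18 months, against 704.9 ± 291.0 in AHRVav1 and 615.5 ± 336.2 in AHRFX mice at 2 months. Whether the CRMP list differs from other genes was not tested.

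**Figure D5:**
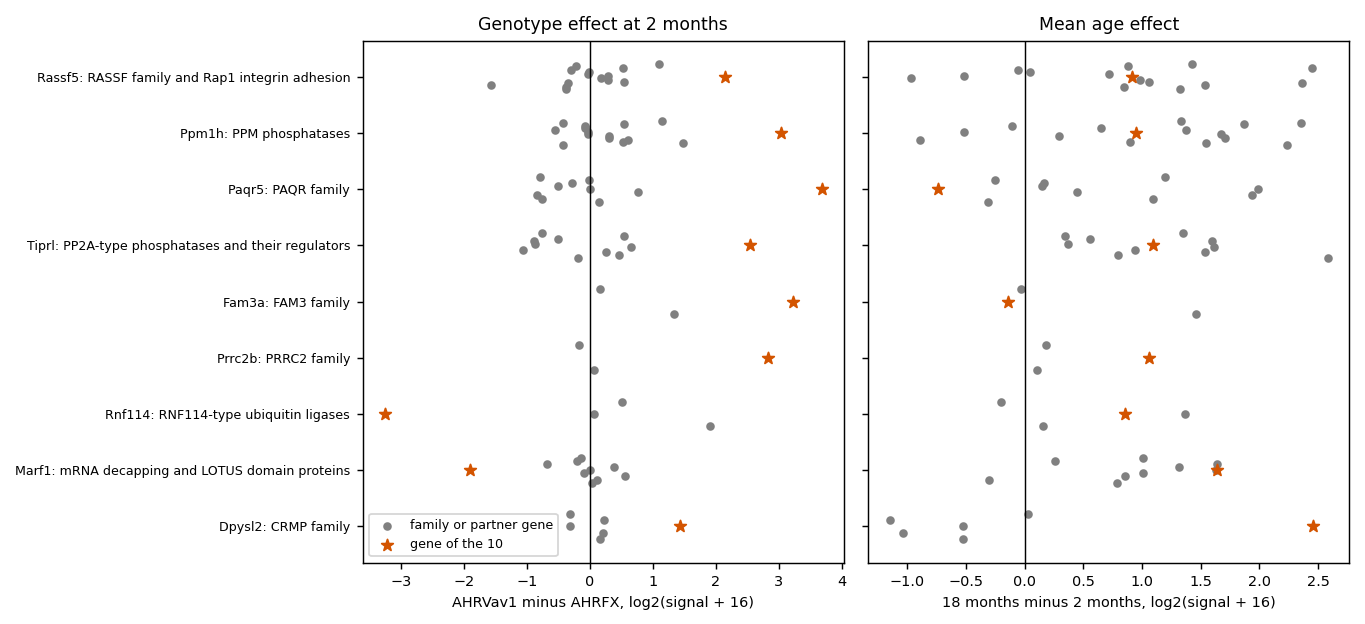
Genotype effect at 2 months (left, AHRVav1 minus AHRFX) and mean age effect (right, 18 minus 2 months), both on log2(signal + 16), for the family and partner genes of 9 members (grey points) and the members themselves (stars). The 68 grey points have a median of -0.01 on the left and 0.87 on the right. The stars were chosen for their genotype-by-age difference, which uses the values on the left.

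The promoters of the 10 genes were read for the AHR core, GCGTG on either strand, in windows from 250 bases before to 50 bases after each start (RefSeq, GRCm38.p6). There were 12 windows for 9 of the genes, and Dpysl2 had no entry. The core was in both windows of Rnf114, 2 of the 12, and in no window of the other 8 genes. Of all 32851 such windows 32.4% held it. The 2 windows of Tiprl overlap almost whole, as do those of Fam3a. So few windows were not compared with the rest by a test. The windows of the 10 genes held 52.0 to 82.0% G or C, against a median of 52.7% over all windows. The 250 bases before the start are shown for Rnf114, the member with the core, and for Ppm1h and Paqr5, the pair that was above background in every AHRVav1 and no AHRFX mouse at 2 months. Each is given 5′ to 3′ on the strand of the gene, with the core in capitals (GCGTG, or CACGC where it lies on the other strand). A match of these letters is a description and not a binding site, and binding of AHR was not measured.
Rnf114, chr2:167503193-167503442, plus strand: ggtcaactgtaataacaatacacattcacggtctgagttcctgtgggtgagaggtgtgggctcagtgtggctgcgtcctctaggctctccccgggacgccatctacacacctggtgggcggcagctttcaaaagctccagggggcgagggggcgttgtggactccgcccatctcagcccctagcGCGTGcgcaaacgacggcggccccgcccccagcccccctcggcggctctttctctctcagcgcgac
Rnf114, second start, chr2:167492395-167492644, plus strand: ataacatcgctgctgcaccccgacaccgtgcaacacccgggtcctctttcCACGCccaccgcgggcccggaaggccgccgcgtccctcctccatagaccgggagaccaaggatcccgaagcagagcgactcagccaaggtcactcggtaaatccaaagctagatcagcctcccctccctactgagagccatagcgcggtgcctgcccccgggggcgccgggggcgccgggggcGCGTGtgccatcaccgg
Ppm1h, chr10:122678512-122678761, plus strand: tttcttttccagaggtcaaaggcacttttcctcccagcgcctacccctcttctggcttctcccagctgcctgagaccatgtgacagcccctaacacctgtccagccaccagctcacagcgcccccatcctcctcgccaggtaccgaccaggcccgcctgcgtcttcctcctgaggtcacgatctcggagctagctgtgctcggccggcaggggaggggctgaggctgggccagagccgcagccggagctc
Paqr5, chr9:62026791-62027040, minus strand: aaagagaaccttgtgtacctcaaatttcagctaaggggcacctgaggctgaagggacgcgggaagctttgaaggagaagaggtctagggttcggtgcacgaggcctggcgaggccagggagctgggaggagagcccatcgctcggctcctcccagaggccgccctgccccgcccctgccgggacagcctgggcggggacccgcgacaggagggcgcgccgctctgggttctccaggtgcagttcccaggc

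In the first Rnf114 window the core began 66 bases before the start. In the second window it began 17 bases before the start on the strand of the gene and 200 bases before it on the other strand. The signals of Rnf114 beside these sequences were 0.5 to 298.9 in AHRVav1 and 455.9 to 790.3 in AHRFX mice at 2 months.

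The genes whose signals were most like those of a member over the 22 arrays were found by Pearson correlation of log2 values. These arrays share the large difference between ages, so the coefficients are descriptions and carry no test. The highest belonged to Dpysl2 with Rxra, a nuclear receptor (r = 0.939), Marf1 with Erlin1 (r = 0.925), Zfp770 with Timm8a1 (r = 0.915), Tiprl with Tnip1 (r = 0.912) and the second Prrc2b probe set with Atp6v1h (r = 0.906). Lower ones were Rnf114 with Rnf181 (r = 0.871), Paqr5 with Ndst4 (r = 0.857), Rassf5 with Snx20 (r = 0.843), Ppm1h with Ints12 (r = 0.836), the first Prrc2b probe set with Dennd4a (r = 0.825) and Fam3a with Slc39a13 (r = 0.789). The best match of the first Prrc2b probe set was thus not that of the second.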

How the data were processed

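RNA of sorted LT-HSCs was amplified with a WT-Ovation PicoSL kit, made for very small amounts of RNA, and hybridized to 1 array per mouse. The deposited values are intensities on a linear scale, which the authors made in Affymetrix Expression Console by IterPLIER (background subtraction, quantile normalization and summary per probe set). For the software version and the genome build the sources used here name none. The platform's annotation gave the symbols: 23325 probe sets had 1 symbol, 1798 several and 1565 none. No pair of arrays was identical, and 4490 values were 0.

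Values were taken as log2(signal + 16) and fitted in R 4.3.3 with limma 3.58.1 (lmFit and eBayes with a mean-variance trend), with Benjamini-Hochberg adjustment over 26688 probe sets and a threshold of 0.05. Each genotype comparison used its 2 groups, and the genotype-by-age difference and the mean age effect used all 4. The scripts were tested on simulated data. "At least" folds set the bright group's mean against the higher of the dim signal and the lowest probe set signal above background per array. The number of arrays limits the precision. Each array was a separate animal. The labels give replicate numbers, which were not taken as pairs in these fits. Between same-numbered mice, deviations from the group means correlated at 0.00465 to 0.0621 (2 months) and -0.124 to 0.252 (18 months). At 18 months they were 0.170 or more except for replicate 5, while mice with different numbers ran from -0.251 to 0.274. These values do not settle whether the numbers are pairs. A replicate block was fitted as an alternative. The mean age effect had been planned as a test of the members too, and is given for them without a p because it shares the 2-month values of the choice.

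The members and lists were chosen with earlier results of these data known. Named were all members, Ahr, per list the 2 genes with the largest mean age effect that passed, and the best correlate of each member; Mmd2, Fam3b, Prrc2a, Prrc2c, Crmp1, Dpys, Dpysl4, Rnf166, Apbb1ip and the markers were added. Alternatives were other offsets, the brighter probe sets alone, renewed normalization, no trend, array weights, a replicate block, another background limit, all groups in 1 fit, the unmoderated test and leaving out arrays.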

Additional observations from a re-analysis of the deposited data

Results flagged for a closer look

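The genotype-by-age difference (18 minus 2 months) was past the threshold for Rassf5 (-2.34, limma adjusted p = 0.0211) and Ppm1h (-3.31, limma adjusted p = 0.0211), with all 5 AHRVav1 mice above all 5 AHRFX mice at 2 months for both. Both genes were chosen by this measure, so these p-values are not independent evidence. The calls were lost on leaving out any 1 of 6 single 18-month arrays (AHRVav1 replicates 1, 2 and 4, AHRFX replicates 1, 3 and 4), with adjusted p between 0.0504 and 0.0611 by limma. Without the 18-month replicates 1 and 2 of both genotypes the adjusted p by limma was 0.550 for both genes.

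Among the 18-month AHRFX mice replicate 3 had a Marf1 signal of 353.2, and its gap to the next mouse was 0.626 of the range of the group on the log2 scale, past the 95% limit for a group of 6. It was the 1 such value in 44 groups, where chance alone gives about 1 in 20.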

How the results depend on the processing

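The genotype effect at 2 months called 0 probe sets in its own fit and 113 (42 higher, 71 lower) with all 4 groups in 1 fit, which pools the smaller spread at 18 months. At 18 months it called 0, and 0 to 1 on leaving out single arrays (1 without AHRFX replicate 1). The genotype-by-age difference called 3, against 0 with an offset of 64, 5 with the brighter probe sets alone, 5 without the trend, 1 with a replicate block (Paqr5, at an adjusted p of 0.0381 by limma, against 0.0898 for Rassf5 and 0.0624 for Ppm1h), 0 with array weights, 0 without the 18-month arrays 1 and 2 of both genotypes, and 0 to 13 on leaving out single arrays. Those 4 arrays stood apart from most others in pairs of 1 AHRVav1 and 1 AHRFX array. Deviations from the group means had a mean correlation of 0.215 where both arrays were replicates 1 or 2. It was 0.0822 where both were replicates 3 to 6 and -0.133 for 1 of each. AHRFX replicate 5 was less distinct, at 0.0494 and 0.126 with AHRVav1 replicates 1 and 2. Pairs of the same genotype were not part of these means. The mean age effect called 17730 (7776 higher, 9954 lower), and 8944 (5718 higher, 3226 lower) with the brighter probe sets alone, where fewer were tested. Renewed normalization moved its median over all probe sets by more than 0.1, to -0.21. The replicate block changed no other count of calls by over 1.5 times. With offsets of 1 and 64 the 2-month difference was 3.06 and 1.22 for Rassf5, 4.09 and 1.94 for Ppm1h, 4.82 and 2.53 for Paqr5, 2.91 and 0.63 for Dpysl2, and -3.49 and -1.02 for Zfp770. With the 99th percentile as background limit, Rassf5 was above it in 0 AHRVav1 mice at 2 months, Ppm1h in 2 and Paqr5 in 3. Of AHRFX mice Zfp770 was above it in 0 and Marf1 in 3. This ends the bounds of Rassf5 and Zfp770, which no 2-month mouse of either genotype had above that limit. The bounds of Ppm1h and Paqr5 and the age bound of Dpysl2 would be smaller with that limit. It lay at 145.9 to 299.7 on 2-month AHRFX arrays, and these bounds were not computed again with it. Fitted differences at 2 months are limited by background, since many low signals were not above it.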
